A study of Homo sapiens with 4 samples.

Results

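Peaks at the genes CIB1, HYPK, SERF2, ZNRF1, ZNF580, ZNF581 and GNB2 were examined in a PRMT5 RIP-seq peak list from Jurkat cells. All peaks that touched the GRCh38 span of 1 of these 7 genes, on either strand, were taken, which gave 31 of the 18993 peaks of the list. ZNF580 lies inside the span of ZNF581, so the genes form 6 loci. The genes had been selected on a measured value, the fold change of PRMT5 RIP over input that the authors' peak caller assigned to peaks with at least 1 RPM in input. For this reason the enrichment at these loci is a description and no finding, and the fold changes of the authors are not used here.

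Jurkat cells are an established human leukemic T cell line. According to the labels, all 4 libraries came from cells stimulated with PHA, a lectin that activates T cells, for 48 hours and then fixed with UV light. The 2 PRMT5 RIP libraries hold RNA that was recovered by FLAG immunoprecipitation (RNA immunoprecipitation, RIP), and the 2 input libraries were sequenced beside them. No immunoprecipitation without PRMT5 was analysed here. The deposited list gives 1 pooled value per peak for PRMT5 RIP and 1 for input, as read counts scaled to library size (RPM) and rounded to 0.01. The spread between libraries and the depth of each library are therefore unknown, no test between the groups was made, and the only error that can be given for a ratio is its rounding range.

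All 8 T cell markers examined, among them CD3D and LCK, had at least 1 peak in their gene. Of 8 markers of other cells, only CD79A had any, with 36.6 RPM in PRMT5 RIP at its highest peak. The list holds only called regions, so a gene without a peak is not shown to be silent. The 31 peaks held 0.243% of all PRMT5 RIP RPM in the list and 0.138% of all input RPM. Some peaks overlap, so the same reads may enter these sums repeatedly.

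PRMT5 is an arginine methyltransferase that acts with WDR77, and RIP-seq asks which RNAs are recovered with it. The 7 genes share no pathway. CIB1 encodes a calcium- and integrin-binding protein, and HYPK a small chaperone-like partner of the NatA acetyltransferase, which modifies protein N termini. SERF2 encodes a small, highly charged protein that promotes amyloid formation, ZNRF1 a RING-type ubiquitin ligase, ZNF580 and ZNF581 C2H2 zinc finger proteins, and GNB2 a beta subunit of heterotrimeric G proteins. In human genes, transcription often starts in GC-rich DNA, and neighbouring genes on opposite strands can share such a region, so that peaks near a start may belong to either gene.

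At each locus, the peak with the highest RPM ratio among those with at least 1 RPM in input lay at or near a gene start. The SERF2 peak covers a start that is not shown here. The sequences around 4 others of these starts are shown because the peak covers the start or lies just beside it. They were read from the RefSeq promoter windows (GRCh38.p14), 5′ to 3′ on the strand of the named gene, and end 30 bases into the transcript. Capitals mark the bases that lie inside the peak. The CIB1 stretch is chr15:90233912-90234001 (minus strand), the HYPK stretch chr15:43800251-43800450, the ZNF580 stretch chr19:55640942-55641031 and the GNB2 stretch chr7:100673680-100673769 (all plus strand).
CIB1: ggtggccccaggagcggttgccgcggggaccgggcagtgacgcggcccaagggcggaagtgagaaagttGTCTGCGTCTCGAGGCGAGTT
HYPK: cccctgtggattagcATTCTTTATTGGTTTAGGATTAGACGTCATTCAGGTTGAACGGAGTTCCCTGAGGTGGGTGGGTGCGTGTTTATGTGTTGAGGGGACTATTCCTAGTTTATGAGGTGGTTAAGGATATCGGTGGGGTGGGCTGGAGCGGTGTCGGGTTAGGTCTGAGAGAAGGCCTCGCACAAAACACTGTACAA
ZNF580: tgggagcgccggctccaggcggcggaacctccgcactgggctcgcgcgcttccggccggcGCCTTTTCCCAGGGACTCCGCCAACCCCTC
GNB2: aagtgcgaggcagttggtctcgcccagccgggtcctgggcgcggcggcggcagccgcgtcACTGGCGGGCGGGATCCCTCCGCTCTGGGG

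The HYPK stretch began 170 bases before the start, and 185 of its 200 bases were inside the peak. In the ZNF580 and GNB2 stretches the peak began exactly at the annotated start, with 30 bases inside. At CIB1, 21 of the bases shown were inside the peak, which was called on the strand opposite to the one printed. The GC content of the CIB1, ZNF580 and GNB2 stretches was 68.9%, 75.6% and 76.7%. In the whole 300-base promoter windows around the same starts, the GC content was 77.0% at CIB1, 70.7% at ZNF580, 66.0% at GNB2 and 51.7% at HYPK. The window of the other HYPK start, also inside the peak, had 58.7%. Thus the peak with the highest ratio did not have the most GC-rich start.

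**Figure D1:**
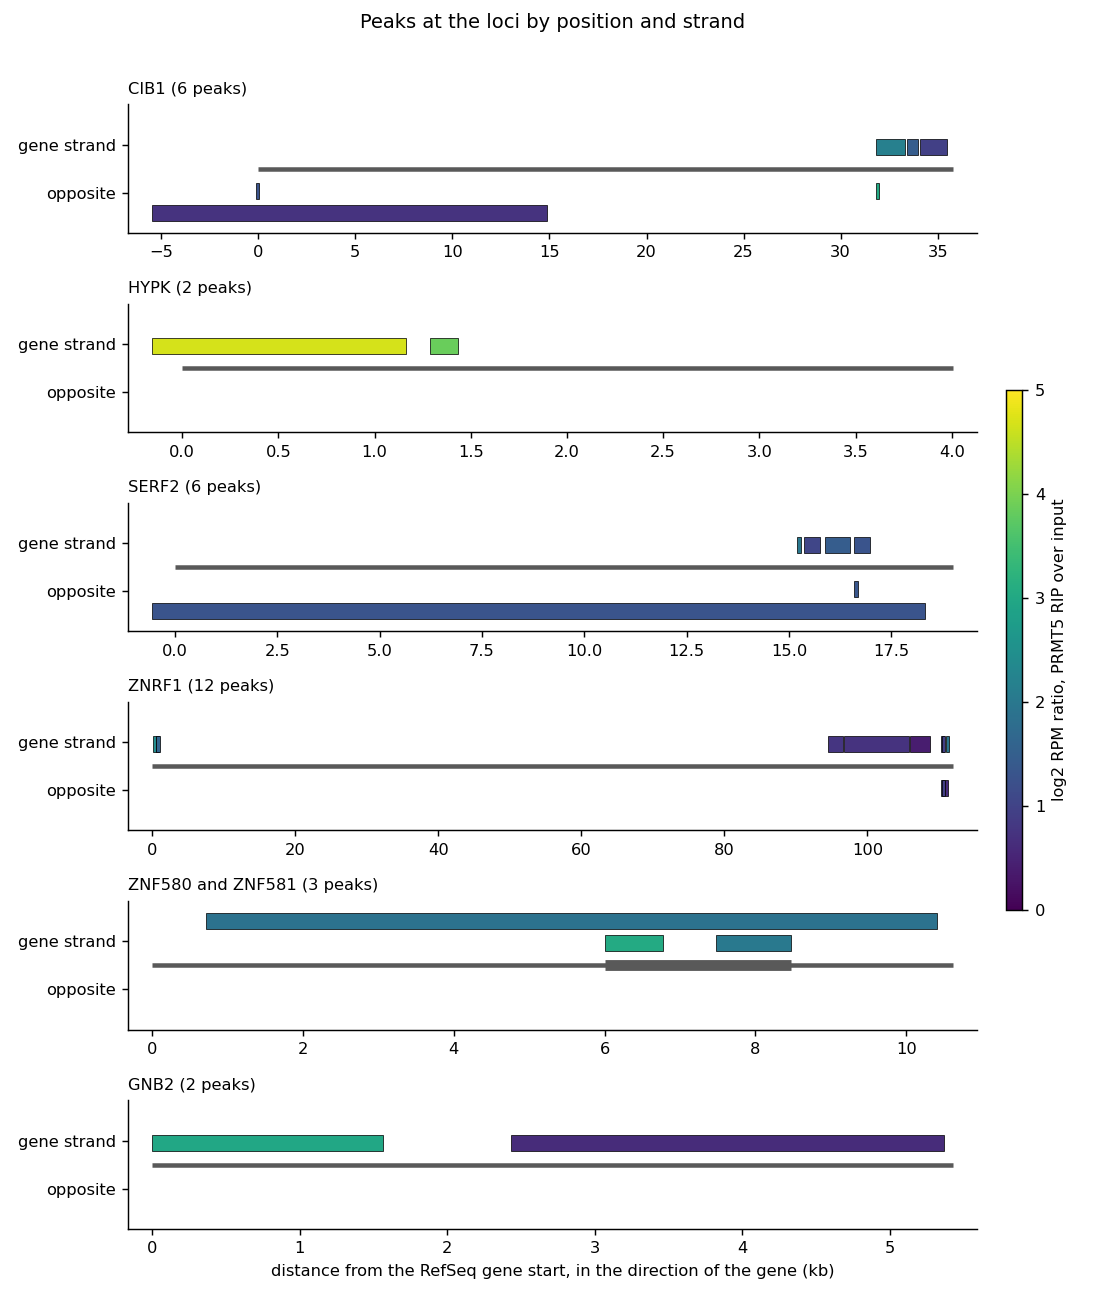
Maps of the 31 peaks at the 6 loci against the distance from the RefSeq gene start (x axis, kb, in the direction of the gene), with the gene as a grey line (thicker for ZNF580), peaks of its strand above and of the opposite strand below, coloured by the log2 RPM ratio (pseudocount 0.01), and very narrow peaks drawn wider than they are. The brightest boxes are the 2 HYPK peaks, with 4.68 and 3.86.

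Of the 31 peaks, 23 had an RPM in PRMT5 RIP of at least 2 times that in input, and 56.6% of all peaks did. Among the 24 peaks with at least 1 RPM in input, 18 reached this ratio, against 39.9% of the 8888 such peaks of the list. As the loci were chosen for enrichment, nothing is read from these shares. The ratio had a median of 2.47 over the 31 peaks and of 2.18 over the list, and ran from 1.33 to 25.7. PRMT5 RIP exceeded input in all 31 peaks and in 18239 of the 18993 peaks of the list. Thus most peaks at these genes lay in the middle of the list, and 5 lay above its 95th percentile of 6.68, namely both HYPK peaks, the plus-strand peak at CIB1, the first ZNF580 peak and the first GNB2 peak.

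**Figure D2:**
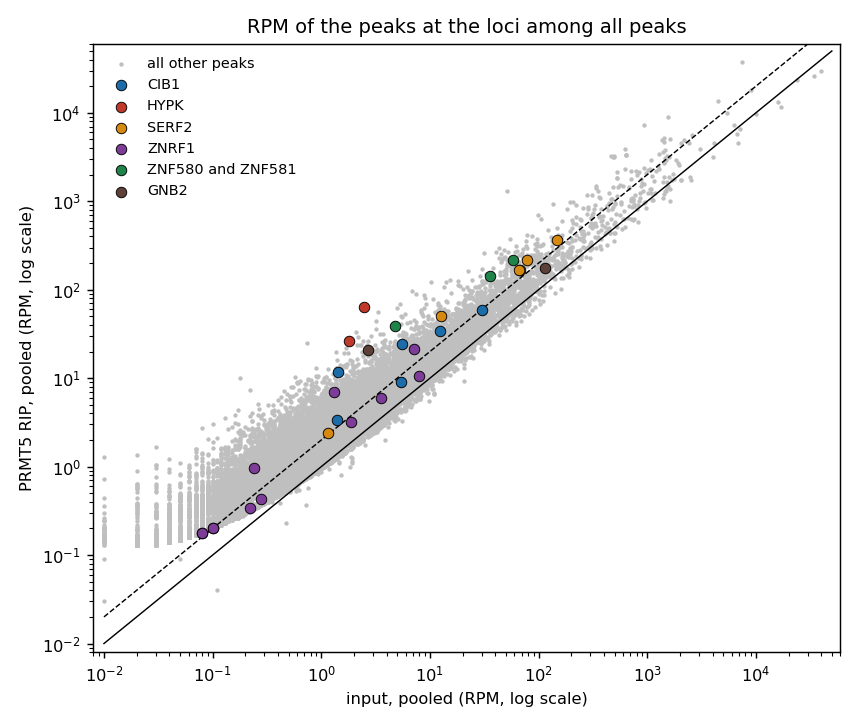
RPM in PRMT5 RIP (y axis) against RPM in input (x axis), both on log scales, for each peak with values above 0. Grey points are all peaks, coloured points are the 31 peaks at the loci, the solid line marks equal RPM and the dashed line a ratio of 2. The 2 HYPK points stand highest above the lines, with 63.3 and 26.3 RPM in PRMT5 RIP against 2.46 and 1.80 RPM in input.

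HYPK (chr15:43800421-43804427, plus strand) had 2 peaks, both on its own strand. The first, chr15:43800266-43801582, had 63.3 RPM after PRMT5 RIP and 2.46 RPM in the input, a ratio of 25.7 with a rounding range from 25.7 to 25.8. By the RPM ratio it ranked number 1 of the 8888 peaks with at least 1 RPM in input, followed by a chromosome 14 peak with 1294 RPM after PRMT5 RIP and 51.7 RPM in the input. The second, chr15:43801708-43801857, had 26.3 RPM against 1.80 RPM, a ratio of 14.6. Both ratios were above those of every other peak at the loci, and the last 2570 nt of the gene held no peak.

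The first HYPK peak began 155 nt before the HYPK start and 46 nt after the start of SERINC4, a gene of the serine incorporator family that runs in the opposite direction. These 2 starts lie 201 nt apart. SERINC4 had no minus-strand peak at this shared region, and the only minus-strand peak in its span was a wide one at its 3′ side. The first HYPK peak lists 2 identifiers, ENSG00000140264.21, which is also given for the SERF2 peaks, and ENSG00000242028.8. The second lists only the latter. Both peaks also lie in SERF2-C15ORF63, an annotated read-through RNA that spans SERF2 and HYPK, so from position alone the reads cannot be given to HYPK transcripts only.

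SERF2 (chr15:43777086-43796089, plus strand) is the upstream neighbour, and 6212 nt without a plus-strand peak separate its last peak from HYPK. It had 4 peaks on its own strand, all within the 3′ part of the gene. The first, chr15:43792289-43792388, covered the most downstream of its 3 annotated starts and had 50.4 RPM after PRMT5 RIP and 12.5 RPM in the input, a ratio of 4.02. The next, chr15:43792439-43792840, was low, with 2.40 RPM and 1.16 RPM and a ratio of 2.07. The last 2 peaks, chr15:43792966-43793578 and chr15:43793679-43794053, had the highest values, with 216 and 362 RPM after PRMT5 RIP and 78.4 and 148 RPM in the input, at ratios of 2.76 and 2.45.

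Levels and ratios were ordered differently at these neighbours. Per kb of peak width, the last SERF2 peak had 965 RPM after PRMT5 RIP and 395 RPM in the input, and the first HYPK peak 48.0 RPM and 1.87 RPM. The SERF2 peak was thus 20.1-fold higher than the HYPK peak in PRMT5 RIP and 211-fold higher in input, while the ratio of the HYPK peak was 6.39-fold above the highest SERF2 ratio. Wide peaks can include introns, which lowers their values per kb. Against the medians of all peaks, 7.89 RPM per kb after PRMT5 RIP and 2.8 RPM per kb in the input, the first HYPK peak was above in PRMT5 RIP and below in input, and the second HYPK peak, with 175 and 12.0 RPM per kb, was above in both.

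On the strand opposite to SERF2 there were 2 peaks. One, chr15:43776534-43795401, was 18868 nt wide, listed 4 identifiers and had 167 RPM after PRMT5 RIP and 67.7 RPM in the input. The other, chr15:43793684-43793758, was 75 nt wide and had 166 RPM and 66.1 RPM. The wide peak spans the region from ELL3 to SERINC4. The RPM of the narrow peak inside it equalled 99.6% of the RPM of the wide peak in PRMT5 RIP and 97.6% in input. Whether the same reads were counted in both peaks was not tested. The narrow peak lies within the hairpin of MIR1282 (chr15:43793659-43793759), annotated on the minus strand, and contains the whole mature miRNA at chr15:43793732-43793751. The mature sequence from RefSeq is shown, with its seed (bases 2 to 8) in capitals, because it places the peak.
hsa-miR-1282: uCGUUUGCcuuuuucugcuu

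These 75 nt are also covered by the last plus-strand peak of SERF2, whose ratio of 2.45 is close to the 2.52 of the narrow minus-strand peak. Per kb, the narrow peak was the highest of all 31 peaks in both groups, with 2219 RPM after PRMT5 RIP and 881 RPM in the input. Whether these are reads of a small RNA or reads of SERF2 mRNA counted on both strands was not tested, as the way in which strands were counted is not given in the sources used here.

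CIB1 (chr15:90229975-90265759, minus strand) had 3 peaks on its own strand, all in the 3′ end of its span, downstream of the 2 inner of its 3 annotated starts. From 5′ to 3′, the first, chr15:90232424-90233925, had 24.5 RPM after PRMT5 RIP and 5.51 RPM in the input, a ratio of 4.44. The second, chr15:90231769-90232348, had 33.8 RPM against 12.3 RPM, a ratio of 2.74. The third, chr15:90230275-90231693, had 58.5 RPM against 30.1 RPM, a ratio of 1.94. Along the gene the RPM was thus higher and the ratio lower with each peak toward the 3′ end. Per kb of peak width the RPM did not rise throughout. It was 16.3, 58.3 and 41.2 after PRMT5 RIP and 3.67, 21.2 and 21.2 in the input.

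The peak with the highest ratio at this locus was on the opposite strand and carried another identifier, ENSG00000183208.13, than the minus-strand peaks, ENSG00000185043.13. It spanned chr15:90233833-90233932 (plus strand), with 11.8 RPM after PRMT5 RIP and 1.44 RPM in the input, a ratio of 8.17 (rounding range 8.13 to 8.20) and rank 57 of 8888. Of its 100 nt, 93 overlapped the first minus-strand peak of CIB1. GDPGP1, which encodes a GDP-glucose phosphorylase, starts 277 nt beyond the end of this peak on the plus strand, and its RefSeq span held no plus-strand peak. CIB1 and GDPGP1 are arranged head to head, with 54 nt between a CIB1 start and that of GDPGP1. Whether the 100-nt peak is RNA of the GDPGP1 side or reads of CIB1 counted on both strands was not tested. By its strand and its identifier it is not listed as a CIB1 peak.

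The other 2 plus-strand peaks in the CIB1 span lay around its farthest start, where NGRN, the neugrin gene, starts 87 nt away on the opposite strand. A 175-nt peak, chr15:90265697-90265871, had 3.38 RPM after PRMT5 RIP and 1.39 RPM in the input, a ratio of 2.43. A 20350-nt peak over TTLL13 and NGRN, with 5 identifiers, had 9.02 RPM and 5.44 RPM, a ratio of 1.66. NGRN had 2 further peaks outside the CIB1 span, with ratios of 1.53 and 2.56.

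ZNF580 (chr19:55641002-55643470) and ZNF581 (chr19:55635003-55645623), both on the plus strand, shared 3 plus-strand peaks. The first ZNF580 peak, chr19:55641002-55641780, had 39.3 RPM after PRMT5 RIP and 4.80 RPM in the input, a ratio of 8.18 (rounding range 8.17 to 8.19) and rank 56 of 8888. The second, chr19:55642481-55643470, ended exactly at the annotated end of ZNF580 and had 144 RPM against 35.4 RPM, a ratio of 4.08. Both list only the identifier ENSG00000213015.9.

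The remaining peak, chr19:55635709-55645416, was 9708 nt wide, listed 2 identifiers and contained both ZNF580 peaks. It had 214 RPM after PRMT5 RIP and 58.4 RPM in the input, a ratio of 3.67. The nested ZNF580 peaks, which cover 1769 nt of it, summed to 183 RPM and 40.2 RPM, or 85.6% and 68.8% of the wide peak. What remained outside them was 30.9 RPM and 18.2 RPM, a ratio of 1.70, if every read was counted in both peaks. The wide peak is the only one that reached beyond ZNF580 into the rest of ZNF581, so no value for ZNF581 alone can be given. It also overlapped LOC107983998, a long noncoding RNA gene on the plus strand at chr19:55635003-55640799, inside the ZNF581 span. The only annotated ZNF581 start, chr19:55643649, lies beyond the end of ZNF580. The second ZNF580 peak touched the promoter window of that start, chr19:55643399-55643698. CCDC106, the next gene downstream, had 4 plus-strand peaks with ratios from 1.84 upward, and the highest of them had 17.6 RPM after PRMT5 RIP and 8.48 RPM in the input.

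GNB2 (chr7:100673740-100679169, plus strand) had 2 peaks, both on its own strand and under 1 identifier. The first, chr7:100673740-100675301, began at the annotated start and had 21.1 RPM after PRMT5 RIP and 2.67 RPM in the input, a ratio of 7.89 (rounding range 7.87 to 7.90) and rank 62 of 8888. The second, chr7:100676173-100679110, ended 59 nt before the end of the gene and had 175 RPM against 115 RPM, a ratio of 1.53. The ratios of the 2 peaks differed by 5.17-fold, the widest difference between the 5′ and 3′ ends at any of the 6 loci. Per kb, the 3′ peak was 4.43-fold higher than the 5′ peak in PRMT5 RIP and 22.9-fold higher in input. Most of the GNB2 signal in both groups was thus in the 3′ peak, whose ratio was below the median of the list, as was that of the highest CIB1 peak.

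ZNRF1 (chr16:74999024-75110994, plus strand) had 12 peaks, more than any other locus, and most were low. The first, chr16:74999099-74999423, began 75 nt after the start and had 7.05 RPM after PRMT5 RIP and 1.30 RPM in the input, a ratio of 5.42 (rounding range 5.40 to 5.45) and rank 208 of 8888. The highest level was in the third peak, chr16:74999549-75000073, with 21.3 RPM against 7.07 RPM and a ratio of 3.01. Between them was a 25-nt peak with 0.34 RPM and 0.22 RPM. Then followed 93501 nt without a plus-strand peak.

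In the 3′ part of ZNRF1, the 3 broad plus-strand peaks had 3.21, 5.92 and 10.6 RPM after PRMT5 RIP and 1.88, 3.57 and 8.01 RPM in the input, at ratios of 1.71, 1.66 and 1.33. The 3 narrow plus-strand peaks beyond them stayed below 1 RPM in both groups, and the last of them, with 0.96 RPM against 0.24 RPM, had a ratio of 4.0. On the opposite strand lay 3 more peaks under the identifier ENSG00000247033.1. Of these, 2 were 25 nt wide, shifted by 1 nt from plus-strand peaks of the same width, and had the same RPM as their partners, 0.18 and 0.20 RPM after PRMT5 RIP and 0.08 and 0.10 RPM in the input. The third, 471 nt wide, had 0.43 RPM against 0.28 RPM. The 2 peaks at 0.20 and 0.10 RPM have a ratio of exactly 2, with a rounding range from 1.86 to 2.16, so whether they reach 2 cannot be told. The input minimum behind the choice of the loci fell between 1.16 RPM, the second SERF2 peak, and 0.28 RPM, the 471-nt minus-strand peak at ZNRF1, among the 31 peaks.

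**Figure D3:**
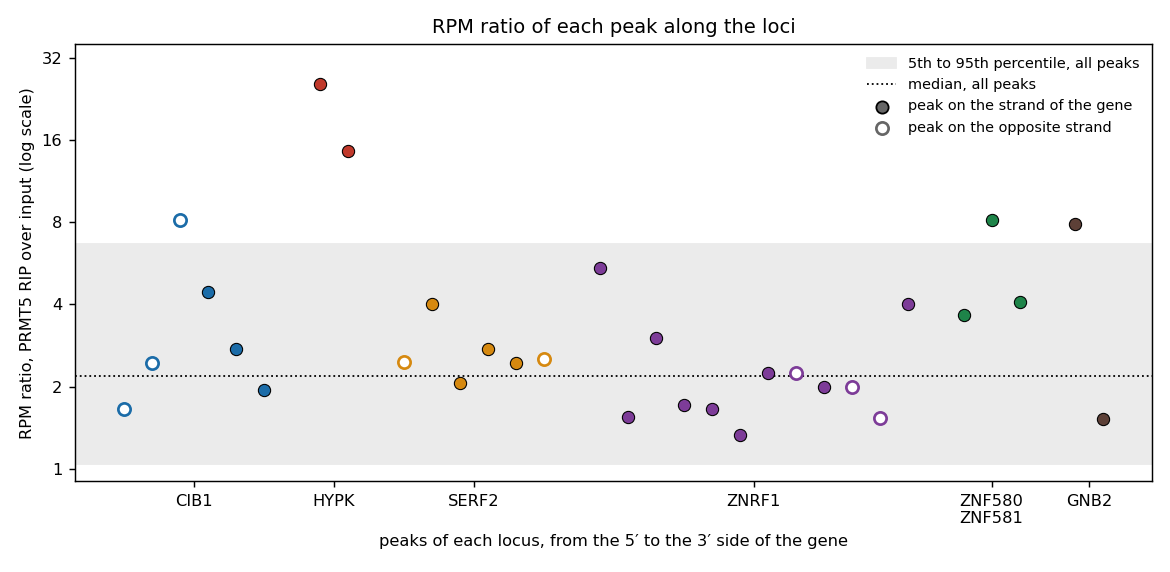
RPM ratio of PRMT5 RIP over input on a log scale (y axis) for each of the 31 peaks, ordered from the 5′ to the 3′ side of the gene within each locus (x axis). Filled points are peaks on the strand of the gene, open points peaks on the opposite strand, the dotted line is the median of all peaks (2.18) and the grey band runs from their 5th to their 95th percentile (1.04 to 6.68). At CIB1 the filled points go from 4.44 to 1.94 and at GNB2 from 7.89 to 1.53.

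The position of the peaks was not used directly in choosing the loci, but the leading peaks were picked by their ratio. Over the list the ratio was higher in peaks touching a promoter window, with a median of 2.58 against 2.06 for the others. Of the 31 peaks, 11 touched the window from 250 bases before to 50 bases after a RefSeq gene start, and 24.9% of all peaks did. Of the 6 peaks that led their locus, 5 touched such a window, and the ZNRF1 peak began 75 nt after its start. All 6 lay within 200 nt of a start of the gene, and 3286 of the 8888 peaks with at least 1 RPM in input lay as close to a RefSeq start. Nothing is read from this, because peaks picked by ratio are set here against peaks that were not. The ratios themselves were used in choosing the loci, so their order along a gene is given as a description. On the strand of the gene, the 5′-most peak had a higher ratio than the 3′-most peak at all 6 loci, by 1.36-fold at ZNRF1, 1.64-fold at SERF2, 1.76-fold at HYPK, 2.01-fold at ZNF580 without the wide peak, 2.29-fold at CIB1 and 5.17-fold at GNB2. Among all RefSeq genes with a strand in the tables and at least 2 such peaks under 5000 nt, some of which share peaks, the same order held in 2215 of 3249. With peaks of any width it held in 5 of the 7 genes and in 70.7% of all, because the wide peak then comes first at ZNF580 and ZNF581, with 3.67 against 4.08. The order is thus common in the list and not particular to these genes. Input per kb was higher in the 3′-most peak at 5 loci, from 3.15-fold at SERF2 to 22.9-fold at GNB2, and lower at ZNRF1, at 0.40 of the 5′-most peak. At these 5 loci the lower ratio at the 3′ side went with more input per kb, whose part in the ratio was not tested. At HYPK this held per kb only, as the input RPM itself was lower in the 3′ peak, with 1.80 against 2.46 RPM.

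On strand, the loci fell into those with peaks of both strands and those without. There were 23 peaks on the strand of the gene and 8 on the opposite strand, at CIB1, SERF2 and ZNRF1. A peak on the opposite strand was overlapped by 14 of the 31, namely all 6 at SERF2, 6 at ZNRF1 and 2 at CIB1, and by 18.1% of all peaks. Several identifiers were listed for 4 of the 31, against 8.62% in the list. HYPK, ZNF580, ZNF581 and GNB2 had no opposite-strand peak, so no peak of theirs overlapped one of the other strand.

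The promoter windows of the 14 annotated starts of the 7 genes had a median GC content of 66.8%, with a range from 48.7% to 77.0%. The median over 35116 windows in the RefSeq table was 58.7%. Not above that median were the SERF2 window with 48.7%, the HYPK windows with 51.7% and 58.7%, and ZNF580 windows with 57.7%. The comparison is with all annotated starts and not with starts of genes that have peaks. The number of CG dinucleotides per window had a median of 25 against 14. The motif GGGCGG, the GC box, was searched on both strands and found in 13 of the 14 windows, the exception being the window of the first HYPK start, and in 45.0% of all windows. CCAAT was found on either strand in 6 of the 14 and in 34.6% of all, and TATAAA in none of the 14 and in 11.5% of all. Windows of 1 gene overlap in part, so they are not independent. In the printed HYPK stretch CCAAT lies on the opposite strand, so that it reads ATTGG from base -148, and in the CIB1 stretch a GC box stands at base -10. An annotated start on the opposite strand lay within 1000 nt of 6 of the 14 starts, all of CIB1 and HYPK and 1 of SERF2, and of 22.6% of all starts.

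**Figure D4:**
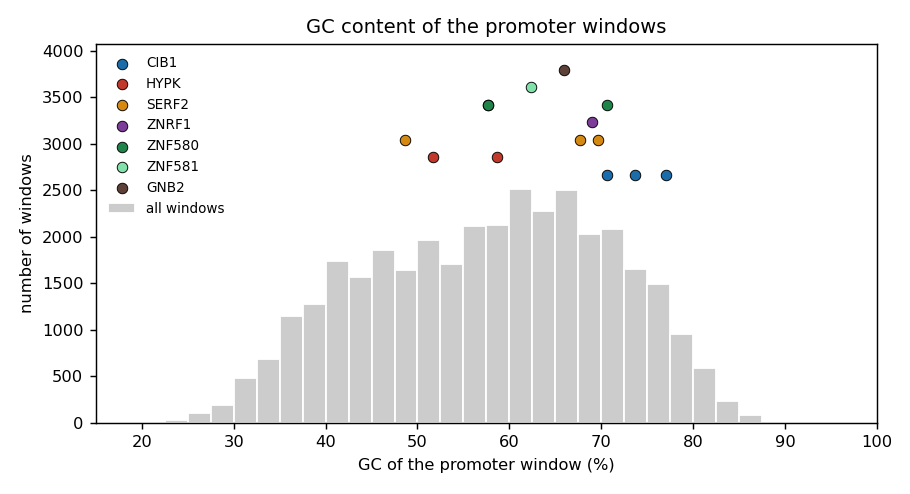
GC content (x axis, %) of 300-base promoter windows. Grey bars give the number of windows in the RefSeq table (y axis), and points, stacked by gene above the bars at no y value, are the 14 windows of the 7 genes, with 77.0% for the highest CIB1 window and 48.7% for the lowest SERF2 window.

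Related genes were examined by symbol, with peaks on their own strand, or on either strand for TMC8, NAA10, ZNRF3, GNB3 and GNGT2. Of 31 such genes, 17 had a peak, with 47 peaks in all. A ratio of 2 was reached by 31 of these 47 peaks, and by 56.6% of all peaks. The median ratio of the 47 was 2.33, beside 2.18 for the list. The groups of related genes differed, with 2 of 9 peaks at this ratio for the beta subunits and RACK1 and 10 of 12 for the CIB1 group. In the NatA complex, the partner of HYPK, the auxiliary subunit NAA15 had 1 peak, with 9.11 RPM after PRMT5 RIP and 1.07 RPM in the input, a ratio of 8.51 over 32667 nt. The catalytic subunit NAA10 had 2 peaks, the higher with 66.5 RPM against 32.8 RPM and a ratio of 2.02, and NAA50, a further acetyltransferase of the complex, had 2 with ratios of 1.46 and 2.78. No peak was found for NAA11. None of these reached the ratio of either HYPK peak.

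ZNRF2, the close relative of ZNRF1, had 2 peaks, the higher with 12.7 RPM after PRMT5 RIP and 1.45 RPM in the input and a ratio of 8.75, above the ZNRF1 maximum of 5.42. ZNRF3 and ZNRF4 had none. The near-identical genes SERF1A and SERF1B, whose reads cannot be told apart, had 3 peaks each, with ratios up to 3.53 and 4.05. In the CIB1 group, CIB2 had 3 peaks with ratios from 2.18 to 4.63, the highest over 20203 nt, and CIB3 and CIB4 had none. TMC6 and TMC8, whose proteins form a complex with CIB1, had 6 and 4 peaks, with ratios from 1.91 to 2.86 and from 2.0 to 3.74. These counts share a peak, as TMC8 was counted on either strand.

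Among the beta subunits, GNB1 had 4 peaks with ratios from 0.97 to 4.99. The highest of them, 43409 nt wide, had 41.6 RPM after PRMT5 RIP and 37.3 RPM in the input. GNB5 had 1 peak, with 0.52 RPM against 0.13 RPM, and GNB3 and GNB4 had none. RACK1, a ribosomal scaffold protein of the same fold, had 4 peaks, all with more RPM in input than after PRMT5 RIP, the highest with 623 RPM against 709 RPM. Of 12 gamma subunits, 5 had a peak, with ratios from 1.15 in GNG5 to 7.25 in GNG4, where the peak had only 0.29 RPM against 0.04 RPM. The GNG5 peak was 47740 nt wide. Peaks as wide as those of GNB1 and GNG5 may cover other genes as well. Among related peaks with at least 1 RPM in input, those of NAA15 and ZNRF2 had ratios near those of the leading peaks at ZNF580 and CIB1.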

How the data were processed

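Jurkat RIP-seq was analysed from 1 deposited peak list. The authors gave RPM per peak, pooled over 2 PRMT5 RIP and over 2 input libraries and rounded to 0.01. The submitters' processing notes name fastp, HISAT2 and hg38. The peak caller, the annotation, strand counting and the way of pooling are not given in the sources used here. The library kit of the labels is directional. The authors' fold changes, p-values, FDR and scores were not used. Input RPM took all 100 steps from 0.01 to 1.00 RPM, and PRMT5 RIP RPM took 91 of them. Reads and depth were not recovered, and no interval or floor was computed.

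Peak starts were raised by 1 to count from 1. Gene spans came from RefSeq GRCh38.p14, and strands, starts and sequences from its promoter and miRNA tables, matched by symbol. A peak was assigned by at least 1 shared base. Ratios were PRMT5 RIP over input, and log2 ratios used a pseudocount of 0.01. Named genes were the 7 genes, RefSeq genes within 5000 nt, and lists of related genes and markers. Members and lists were chosen with earlier results of these data known. The names of identifiers were not looked up. Counting of overlaps and ratios was tested on simulated peaks. Alternatives for overlap, strand, span, input minimum, ratio, scaling, pseudocount and start window were tried. Python 3.11.15, pandas 2.3.3, numpy 2.4.6 and matplotlib 3.10.9 were used.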

Additional observations from a re-analysis of the deposited data

How the results depend on the processing

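No paired analysis was possible because the list holds 1 pooled value per group, and no library could be left out. The number of peaks at the loci, 31, stayed within 1.5 times when overlap, strand or span was defined otherwise, from 23 on the strand of the gene to 32 with spans extended by 1000 nt. Without peaks that overlap a peak on the opposite strand, an alternative chosen after seeing the data, 17 were left, by construction. Of the 31 peaks, 23 had a ratio of at least 2. This was 12 at a ratio of at least 3 (30.1% of all peaks), 7 with ratios divided by the median ratio of all peaks (14.0% of all), and 10 of 17 without overlaps on the opposite strand (57.0% of all). Peaks touching a gene start numbered 11 (24.9% of all peaks did), and from 8 to 14 under the alternatives. The count was 14 with a window wider on both sides (37.6% of all) and 8 with the start base itself (13.1% of all). It was 10 when the peak had to lie on the strand of that gene (20.7% of all). The share over all peaks thus moved with the definition as well.

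The log2 ratio of the highest PRMT5 RIP peak cannot change sign with a pseudocount or a sum, as PRMT5 RIP exceeded input in every peak. Divided by the median ratio of all peaks, an alternative added after seeing the data, it was -0.17 at CIB1 and -0.52 at GNB2, below that median. It was 3.55 at HYPK, 0.16 at SERF2, 0.46 at ZNRF1 and 0.75 at ZNF580 and ZNF581. The median of peaks with at least 1 RPM in input was lower, 1.78. The CIB1 peak, with a ratio of 1.94, was above it, and the GNB2 peak, with 1.53, below. With a pseudocount of 0.1 in place of 0.01 the log2 ratio went from 4.68 to 4.63 at HYPK. It went from 1.59 to 1.58 at ZNRF1 and from 0.96 to 0.95 at CIB1, and was unchanged at this precision at the other loci. With a pseudocount of 1 it was 0.93 at CIB1, 4.22 at HYPK, 1.28 at SERF2, 1.47 at ZNRF1 and 1.86 at ZNF580 and ZNF581. With RPM summed over the locus it was 1.32 at CIB1, 4.39 at HYPK, 1.37 at SERF2 and 1.14 at ZNRF1. At ZNF580 and ZNF581 it was 2.01, and at GNB2 0.74. The values differ because other peaks enter the sum, and reads of overlapping peaks may enter it repeatedly.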

Other observations

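Over the whole list, 69.2% of the 4732 peaks that touched a promoter window had a ratio of at least 2, with a median of 2.58, and 52.4% of the other 14261 peaks did, with a median of 2.06. These are shares over peaks of pooled libraries, with no test.

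The width of 15 of the 31 peaks, and of 53.0% of all peaks, was a multiple of 25 nt. An edge on an annotated RefSeq gene edge or start was found for 3 of the 31 peaks, both ZNF580 peaks and the first GNB2 peak, and for 5.61% of all peaks.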
